A study of Homo sapiens with 8 samples.

Results

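The genes described are 37 members of the Wnt, Notch and Hedgehog signalling pathways, taken by name out of the 19821 protein-coding genes placed on chromosomes 1 to 22 or X of GRCh38. There were 19 Wnt, 11 Notch and 7 Hedgehog genes, of which 8 encode ligands, 11 receptors, 5 cytoplasmic relay proteins and 13 nuclear effectors. Their chromatin was mapped by chromatin immunoprecipitation sequencing (ChIP-seq) in neural progenitors differentiated from H9, a widely used human embryonic stem cell line. The stem cells had been infected with lentivirus carrying 1 of 2 short hairpins against the lysine demethylase KDM2A, named sh1 and sh4, or with a negative control virus, NC, and were then differentiated. H3K36me2, dimethylated lysine 36 of histone H3, was precipitated from sh1, sh4 and NC cells, and KDM2A from NC cells only. All 3 groups thus carry a virus and share the parental line, and each precipitation is 1 library, so no replicate spread can be given for any value and groups could not be tested against each other. The 4 input libraries were not analysed here.

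KDM2A takes methyl groups off H3K36me2, and its zinc finger recognises CG letters that carry no DNA methylation. In the Wnt pathway, a ligand bound by a Frizzled receptor and an LRP co-receptor stops the destruction complex from degrading beta-catenin, which then acts in the nucleus with TCF and LEF proteins. In the Notch pathway, a ligand on a neighbouring cell causes cleavage of the receptor, whose inner part joins RBPJ and a Mastermind protein to switch on HES and HEY genes. In the Hedgehog pathway, a ligand relieves the block that PTCH1 places on SMO, and GLI factors are released from SUFU. All 3 pathways pattern the neural tube and set the balance between dividing progenitors and neurons.

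The lists were shallow. Across the genome they held 19501 H3K36me2 regions in sh1, 21493 in sh4 and 19691 in NC, with a median fold over input of 1.65 in sh1, 1.65 in sh4 and 1.59 in NC. The median region rested on 151 precipitated and 89 input reads in sh1, 156 and 92 in sh4, and 162 and 99 in NC. Of the 504724 KDM2A peaks, whose pileup had a median of 8 fragments, 3.13% had a false discovery rate (FDR) under 0.05. The lists carry no expression values, so neither the knockdown of KDM2A nor the identity of the cells could be checked in them. The gene KDM2A itself held no H3K36me2 region in sh1, sh4 or NC.

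A KDM2A peak overlapped the promoter window, 250 bases before to 50 bases after an annotated start, in 7 of the 30 pathway genes with a promoter sequence, which is 23.3% (95% exact Clopper-Pearson interval 9.93 to 42.3%, counting error only). Over all 15812 genes with such a sequence the share was 21.3%. The 7 genes were WNT1, WNT5A, JAG1, JAG2, NOTCH3, GLI2 and SUFU. In WNT5A and SUFU the window belongs to an inner start, 17957 and 1153 bp inside the gene. The other 5 windows, at the outer start, are shown because a KDM2A peak reaches into each of them, over 86 of the 300 bases in WNT1, 71 in JAG1, 67 in JAG2, 93 in NOTCH3 and 15 in GLI2. Most of each printed sequence thus lies beside the peak. They come from RefSeq for GRCh38.p14, read 5′ to 3′ on the gene's own strand, with each CG in capitals.
WNT1 (chr12:48978072-48978371, plus strand): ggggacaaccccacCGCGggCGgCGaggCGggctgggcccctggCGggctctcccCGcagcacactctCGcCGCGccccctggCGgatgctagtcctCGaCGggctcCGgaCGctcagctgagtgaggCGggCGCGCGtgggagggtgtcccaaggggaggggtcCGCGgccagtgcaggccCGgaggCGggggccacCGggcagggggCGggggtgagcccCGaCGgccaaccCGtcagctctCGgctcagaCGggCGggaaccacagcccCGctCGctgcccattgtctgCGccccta
JAG1 (chr20:10673950-10674249, minus strand): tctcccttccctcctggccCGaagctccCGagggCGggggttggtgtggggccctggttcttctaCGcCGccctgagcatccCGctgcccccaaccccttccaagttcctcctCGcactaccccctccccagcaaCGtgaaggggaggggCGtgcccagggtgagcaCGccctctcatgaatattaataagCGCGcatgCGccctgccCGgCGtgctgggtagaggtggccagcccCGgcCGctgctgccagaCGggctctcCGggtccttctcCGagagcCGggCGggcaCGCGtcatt
JAG2 (chr14:105168727-105169026, minus strand): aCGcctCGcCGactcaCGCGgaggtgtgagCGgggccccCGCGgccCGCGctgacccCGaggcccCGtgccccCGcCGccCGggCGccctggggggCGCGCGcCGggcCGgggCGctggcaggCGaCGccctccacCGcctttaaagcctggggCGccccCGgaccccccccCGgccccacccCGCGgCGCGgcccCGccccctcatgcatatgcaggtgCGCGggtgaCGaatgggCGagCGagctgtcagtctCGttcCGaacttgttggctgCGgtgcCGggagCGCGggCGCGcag
NOTCH3 (chr19:15200946-15201245, minus strand): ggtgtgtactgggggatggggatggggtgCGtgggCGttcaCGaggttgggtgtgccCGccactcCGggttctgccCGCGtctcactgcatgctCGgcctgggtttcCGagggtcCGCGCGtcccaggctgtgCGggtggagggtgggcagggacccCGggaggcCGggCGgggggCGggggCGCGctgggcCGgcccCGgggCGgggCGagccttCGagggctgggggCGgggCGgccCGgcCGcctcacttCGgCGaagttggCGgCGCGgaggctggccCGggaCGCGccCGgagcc
GLI2 (chr2:120735618-120735917, plus strand): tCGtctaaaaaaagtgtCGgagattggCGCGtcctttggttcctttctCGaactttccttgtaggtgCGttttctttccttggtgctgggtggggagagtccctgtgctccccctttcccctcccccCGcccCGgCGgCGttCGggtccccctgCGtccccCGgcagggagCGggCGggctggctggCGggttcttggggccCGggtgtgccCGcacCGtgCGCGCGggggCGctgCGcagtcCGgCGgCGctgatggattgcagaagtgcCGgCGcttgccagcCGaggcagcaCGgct

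The CG dinucleotide, the letters read by the zinc finger, occurred 34 times in the whole WNT1 window, 24 in JAG1, 46 in JAG2, 37 in NOTCH3 and 31 in GLI2. The peaks that reach into these windows had folds of 1.99 for WNT1, 3.19 for JAG1, 2.45 for JAG2, 2.90 for NOTCH3 and 2.88 for GLI2. Among the 5, JAG2 had the most CGs and WNT1 the weakest peak. The 30 pathway promoters held a median of 30 CGs (lowest 0 in RBPJ, highest 52), against 22 over all genes with a promoter sequence, and 22 of the 30 lay above that value. The RBPJ window lies at an inner start, 58009 bp inside the gene. Many CGs were not always joined by a peak. The promoters of AXIN1 (44 CGs), HES5 (45), HES6 (43) and NOTCH1 (42) held none, and their nearest peak midpoints lay 632, 1063, 5437 and 2663 bp away. Over all genes the median was 25 CGs in windows with a peak and 21 in windows without. No promoter sequence was matched for AXIN2, FZD3, GLI1, GLI3, HEY1, LRP6 and WNT7B.

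KDM2A peaks lay at the ends of most of the 37 genes, as they did genome-wide. A peak lay within 2 kb of either end in 32 of 37, or 86.5% (71.2 to 95.5%), against 84.0% of all protein-coding genes. FZD3, NOTCH1, NOTCH2, HES6 and GLI3 had none. By role, 8 of 8 ligands, 8 of 11 receptors, 5 of 5 cytoplasmic relays and 11 of 13 nuclear effectors had an end peak. By pathway these were 18 of 19 Wnt, 8 of 11 Notch and 6 of 7 Hedgehog genes. With the FDR under 0.05 the count was 1 of 37, against 5.55% of all genes, so almost all of these peaks are weak ones. Among genes of at least 30 kb, 20 of 24 had an end peak, against 84.2% of all such genes.

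Among the roles, the ligands had the highest median end fold. It was 3.05, against 2.65 in the receptors, 2.59 in the cytoplasmic relays, 2.49 in the nuclear effectors and 2.59 over all genes with an end peak. Among 107 further genes of the 3 pathways this order did not hold, with 2.73 in the ligands, 2.79 in the nuclear factors and 3.27 in 5 secretion factors. WNT3A, a canonical ligand that acts in the dorsal neural tube, had the single end peak past the FDR limit, at chr1:228059743-228059986, with a fold of 3.61, an FDR of 0.0162 and a pileup of 13. That peak lay 52866 bp from the start, near the other end, and the best of the 4 peaks around the WNT3A start had a fold of 2.59. WNT1, which defines the midbrain and hindbrain border, reached 3.23 (FDR 0.0644), also toward its other end. WNT3 reached 3.18 (FDR 0.0840) in a stretch also annotated to LRRC37A2. WNT5A, a ligand of the beta-catenin-independent branch, was the exception with 1.81 (FDR 0.839). JAG1, a Notch ligand, reached 3.19 (FDR 0.102) 268 bp before its start, and JAG2 2.68 at its other end. SHH, the ventralising ligand of the neural tube, reached 2.93 (FDR 0.186) at 2288 bp into the gene. WNT7B, a ligand of the developing forebrain, had 5 end peaks of which the best was 2.61.

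Among the receptors, NOTCH3 stood highest at 3.11 (FDR 0.145), followed by the Frizzled receptor FZD8 at 2.90 (FDR 0.189) and the Wnt co-receptor LRP5 at 2.84 (FDR 0.273). PTCH1, the Hedgehog receptor and itself a target of the pathway, reached 2.70, and SMO, the membrane protein that PTCH1 restrains, 2.60. FZD5 had 2.59 and LRP6, the other co-receptor, 2.52. FZD1 had a best fold of 2.30 but 6 peaks, all within 2 kb of its start. Only WNT3A, with 7 over both ends, had more end peaks.

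The cytoplasmic relays lay close together. AXIN2, a scaffold of the destruction complex and a target of the pathway, had a best fold of 2.81, DVL2, which relays the Frizzled signal, 2.64 in a peak that lies in the neighbouring gene ACADVL, AXIN1 2.59, APC 2.58, and SUFU, which holds GLI proteins in the cytoplasm, 2.41. In the nucleus, LEF1 reached 3.15 (FDR 0.145) at its outer start, where the antisense gene LEF1-AS1 also lies. The LEF1 promoter window belongs to an inner start, 2631 bp inside the gene, and no peak overlapped it. TCF7L1, the repressive TCF of stem cells, reached 2.85 and TCF7L2 and CTNNB1, the gene of beta-catenin, 2.58 each. GLI2, the main activator downstream of SMO, reached 2.88 (FDR 0.145) and the target and activator GLI1 1.73. The Notch effectors all lay under the all-gene median. HES1 had 2.49, HEY1 2.34, HES5 2.33, RBPJ 2.08 and MAML2, a Mastermind co-activator, 1.72. None of these nuclear peaks had an FDR under 0.05.

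**Figure D1:**
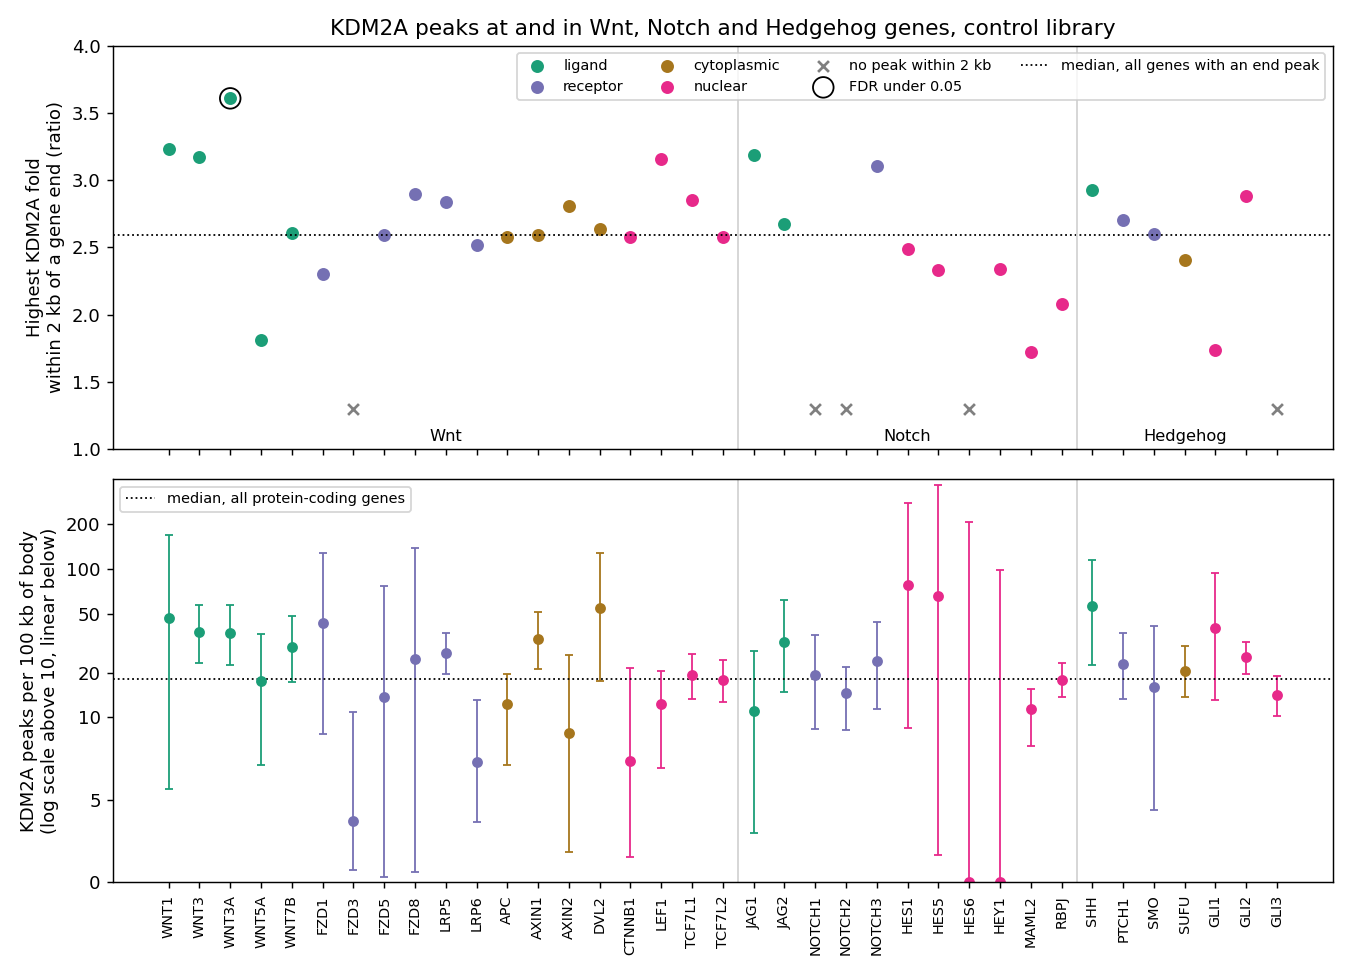
KDM2A in NC cells for each of the 37 genes, 1 library. Upper panel: highest fold (ratio of precipitate to background) of a peak within 2 kb of a gene end, with crosses for genes without one. Lower panel: peaks per 100 kb of gene body with 95% Poisson intervals (counting error), on an axis that is logarithmic above 10. WNT3A, circled, is the only end peak with an FDR under 0.05, and apart from WNT5A every ligand lies above the all-gene median of 2.59 in the upper panel.

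More KDM2A peaks were counted at the start of these genes than at the other end, with intervals that meet. In the 30 genes with a known strand, 45 peaks lay within 2 kb of the start, or 1.5 per gene (95% Poisson interval 1.09 to 2.01), and 25 within 2 kb of the other end, or 0.833 per gene (0.539 to 1.23). In short genes such as HES1 and HES5 the same peak falls in both windows. Over all 15812 genes with a known strand there were 1.07 peaks per gene at the start and 0.914 at the other end. At least 1 start peak was present in 24 of the 30 genes, against 66.1% of all genes, and at least 1 peak at the other end in 16 of the 30, against 58.9%. Counted per kb, the pathway genes held 0.467 peaks per gene in the kb before the start (0.255 to 0.783) and 0.300 in the kb after it (0.137 to 0.569), against 0.264 and 0.352 over all genes. The 2 intervals of the pathway genes overlap, so their order cannot be read from these counts.

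**Figure D2:**
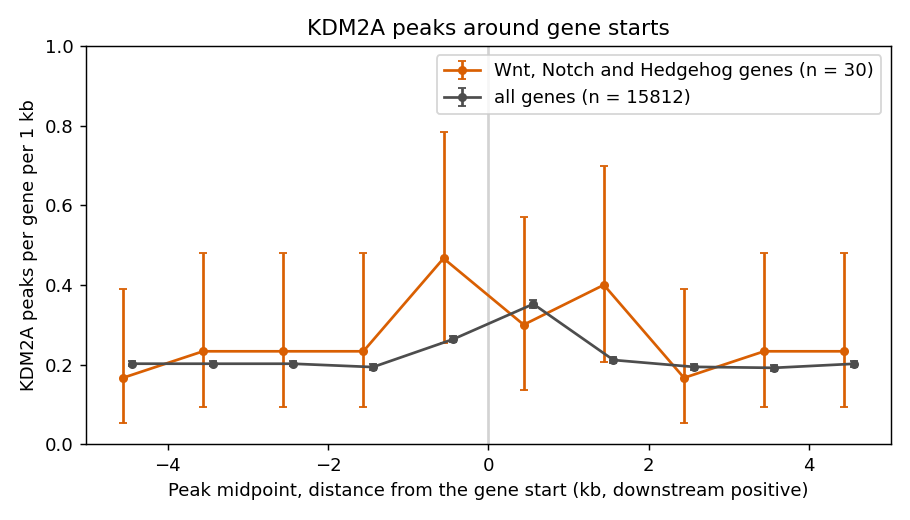
KDM2A peaks per gene in steps of 1 kb around the gene start, for the 30 pathway genes with a known strand and for all 15812 such genes, with 95% Poisson intervals (counting error). The pathway genes reach 0.467 just before the start, and their intervals are wide at every step.

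Inside the gene bodies, the ligand genes were the most densely covered with KDM2A peaks. Taking peaks by their midpoint, the 8 ligands held 30.2 peaks per 100 kb (24.2 to 37.3), the 11 receptors 16.5 (13.7 to 19.7), the 5 cytoplasmic relays 19.6 (15.4 to 24.6) and the 13 nuclear effectors 16.8 (15.0 to 18.8). An FDR under 0.05 was reached by 2 ligand, 4 receptor, 2 cytoplasmic and 4 nuclear peaks, so the order rests mostly on weak peaks. All 37 together held 593 peaks or 18.2 per 100 kb (16.8 to 19.8), against 17.4 over all genes pooled. The density was 18.7 for Wnt, 15.7 for Notch and 20.6 for Hedgehog genes. SHH, WNT1, WNT3 and WNT3A held 56.1, 46.5, 37.4 and 36.9 peaks per 100 kb, whereas WNT5A held 17.7 and JAG1 11.0. The lowest values above 0 were 3.75 in FZD3, 7.28 in LRP6 and 7.33 in CTNNB1.

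Shorter genes held more peaks per 100 kb in general. The ligand genes had a median length of 37932.5 bp and none was above 56797 bp, against a median of 24482 bp over all genes. The median gene below 10 kb held 23.0 peaks per 100 kb, the median gene of 10 to 30 kb 20.5 and that of 30 to 100 kb 17.2. The median of the ligand genes, 34.6, lay above each. Among the 107 further genes, 25 ligands held 28.8 peaks per 100 kb (25.2 to 32.6), 18 receptors 16.9 and 18 nuclear factors 15.7, so the ligands again stood highest. Base composition was not measured along the gene bodies, and its part in this order was not tested.

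At least 1 body peak was present in 35 of 37 genes, against 89.4% of all genes, with none in HEY1, a Notch target, and HES6. Both genes are short, 3758 and 1772 bp, so a count of 0 still allows up to 98.2 and 208 peaks per 100 kb by the Poisson interval. Body peaks with an FDR under 0.05 were found in 7 of 37, against 20.0% of all genes, 12 peaks in all. NOTCH2 and RBPJ held 3 each, APC 2, and WNT3, WNT3A, LRP6 and TCF7L1 1 each. The WNT3A peak is the same as its end peak given above. The WNT3 peak also lies in LRRC37A2, and the 3 RBPJ peaks also lie in LOC124900690. The strongest of the 12 was in TCF7L1 at chr2:85238437-85238932, 105292 bp from the start, with a fold of 3.98 and an FDR of 0.00204. The NOTCH2 peaks had folds of 3.89, 3.68 and 3.32. NOTCH2 has near-identical NOTCH2NL copies, and how reads with several matches were placed is not given in the sources used here, so its values are uncertain. No Hedgehog gene held such a peak, and no ligand besides WNT3 and WNT3A did.

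H3K36me2 lay in a minority of these genes and in long ones, and genome-wide too it was called more often in long genes. Coverage here is the percent of a gene body inside called regions, and 0% means that no region was called, not that the mark is absent. Coverage above 0 was seen in 10 of 37 genes in sh1, 5 in sh4 and 10 in NC, against 16.2% of all genes in sh1, 15.4% in sh4 and 20.0% in NC. In at least 1 library 14 of 37 were covered, against 29.4%. All 14 were at least 40939 bp long, with a median of 154565 bp, against 24913 bp for the 23 uncovered genes. Among genes of at least 30 kb the covered genes were 10 of 24 in sh1, 5 in sh4 and 10 in NC, against 33.1%, 31.8% and 39.8% of all such genes, in the same order of libraries. The 13 pathway genes below 30 kb, 9 of them below 10000 bp and 4 from 10000 to 30000 bp, had no region in any library. In at least 1 library, 3.41% of all genes below 10000 bp and 12.5% of those from 10000 to 30000 bp were covered. With so few short pathway genes, their lack of regions cannot be told apart from these low shares.

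**Figure D3:**
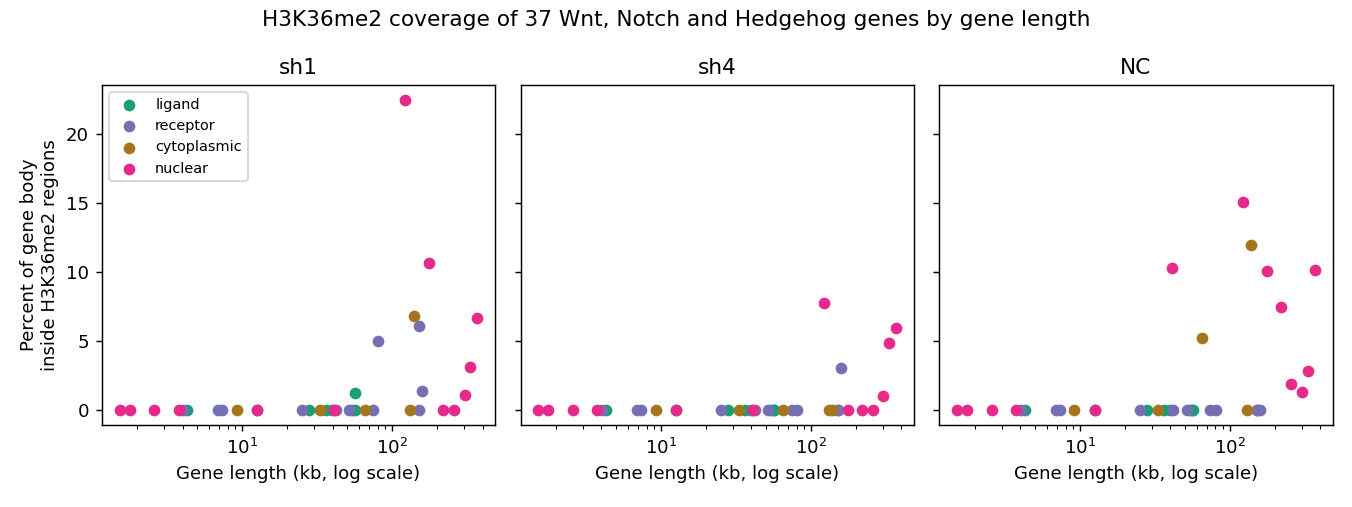
H3K36me2 coverage of the body against gene length (logarithmic axis, kb) for the 37 genes in sh1, sh4 and NC, 1 library each, coloured by role. Every covered gene lies to the right, from 40939 bp upward, and the ligands stay at 0 apart from WNT3 in sh1.

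The nuclear effectors carried most of the mark, and in NC no ligand or receptor gene held a region. In sh1, coverage was above 0 in 1 of 8 ligands, 3 of 11 receptors, 1 of 5 cytoplasmic relays and 5 of 13 nuclear effectors. In sh4 the counts were 0, 1, 0 and 4, and in NC 0, 0, 2 and 8, in the same order of roles. Pooled over length, the nuclear effectors were covered to 4.57% in sh1, 2.72% in sh4 and 6.06% in NC, and all protein-coding genes to 3.10%, 3.53% and 3.60%. The receptors were covered to 2.05% in sh1, 0.639% in sh4 and 0% in NC. The nuclear effectors were also longer, with a median of 121385 bp against 51616 bp in the receptors, so length and role cannot be told apart in these counts.

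Of the 37 genes, 7 had lower coverage in both hairpins than in NC, against 12.6% of all genes: APC, AXIN1, CTNNB1, TCF7L2, MAML2, GLI2 and GLI3. Both hairpins are set against the same NC library, so the 2 differences are not independent. Coverage was higher in both in NOTCH2 and RBPJ, 2 of 37 against 4.69%, and opposite in LEF1 and TCF7L1, 2 of 37 against 4.75%. Coverage was above NC in sh1 and at 0 in sh4 and NC in WNT3, FZD3 and LRP6. The share of all genes covered in sh1 alone was not counted. Among genes of at least 30 kb the share lower in both was 7 of 24, against 23.5% of all such genes, and the share higher in both was 2 of 24, against 10.1%. The shares of long genes lie near those of all such genes. With regions of fold above the NC median only, AXIN1, MAML2 and TCF7L2 were still lower in both. APC in sh1, GLI3 in both hairpins and LEF1 in both hairpins then lay above NC. CTNNB1, GLI2 and TCF7L1 had no coverage left, and NOTCH2 kept its coverage in sh1 but not in sh4. This cut removes a larger share of NC regions than of hairpin regions, because the median fold is lower in NC. With an FDR under 1e-10 only MAML2 was lower in both and only RBPJ higher in both.

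In the Wnt pathway APC, AXIN1, CTNNB1 and TCF7L2 had lower coverage in both hairpins than in NC. CTNNB1 was covered to 0% in sh1, 0% in sh4 and 10.3% in NC, through 1 region at chr3:41231201-41235400, toward the far end of the gene. It had 159 precipitated and 105 input reads and a fold of 1.49 (95% interval 1.16 to 1.93). Regions were listed only with an FDR under 1e-05, so an interval above 1 follows from the listing and adds no support. APC was covered to 6.78% in sh1, 0% in sh4 and 12.0% in NC. Its sh1 region at chr5:112720401-112725200 (fold 1.69) shared 4600 bp with the NC region at chr5:112720601-112726600 (fold 1.52). The other sh1 region, at chr5:112808401-112813000 (fold 1.66), had no counterpart in NC. The other NC regions at 1903 and 38903 bp from the start had no counterpart in sh1. TCF7L2 was covered to 0% in sh1, 0% in sh4 and 7.45% in NC, through 3 regions with folds of 1.42, 1.67 and 1.43. AXIN1 was covered to 0% in sh1, 0% in sh4 and 5.21% in NC, through 1 region of 3400 bp with 125 precipitated and 74 input reads. In CTNNB1, TCF7L2 and AXIN1 regions were thus called in NC alone, and in APC in NC and sh1.

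LEF1 and TCF7L1, partners of beta-catenin on DNA, split by hairpin. LEF1 was covered to 22.4% in sh1, 7.74% in sh4 and 15.0% in NC. Its 5 sh1 regions and 2 sh4 regions lay in the middle of the gene, between 33132 and 87931 bp from the start, and the 2 NC regions in the last part, from 102332 bp to the end. The sh1 and sh4 regions shared 2600 bp, and neither shared any with NC. TCF7L1 was covered to 10.6% in sh1, 0% in sh4 and 10.1% in NC. The sh1 value came from 1 region of 18800 bp with a fold of 1.22 (809 precipitated and 658 input reads) and the NC value from 2 regions of 7600 and 10200 bp with folds of 1.34 and 1.35, none of them overlapping. The like percentages of sh1 and NC in TCF7L1 thus stand for different stretches of the gene. WNT3, FZD3 and LRP6 were covered to 1.24%, 5.00% and 6.09% in sh1. In LRP6 these were 3 regions with folds of 1.81, 2.03 and 1.56, and in WNT3 only 695 bp of a region that runs past the end of the gene and into the annotation of LRRC37A2.

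**Figure D4:**
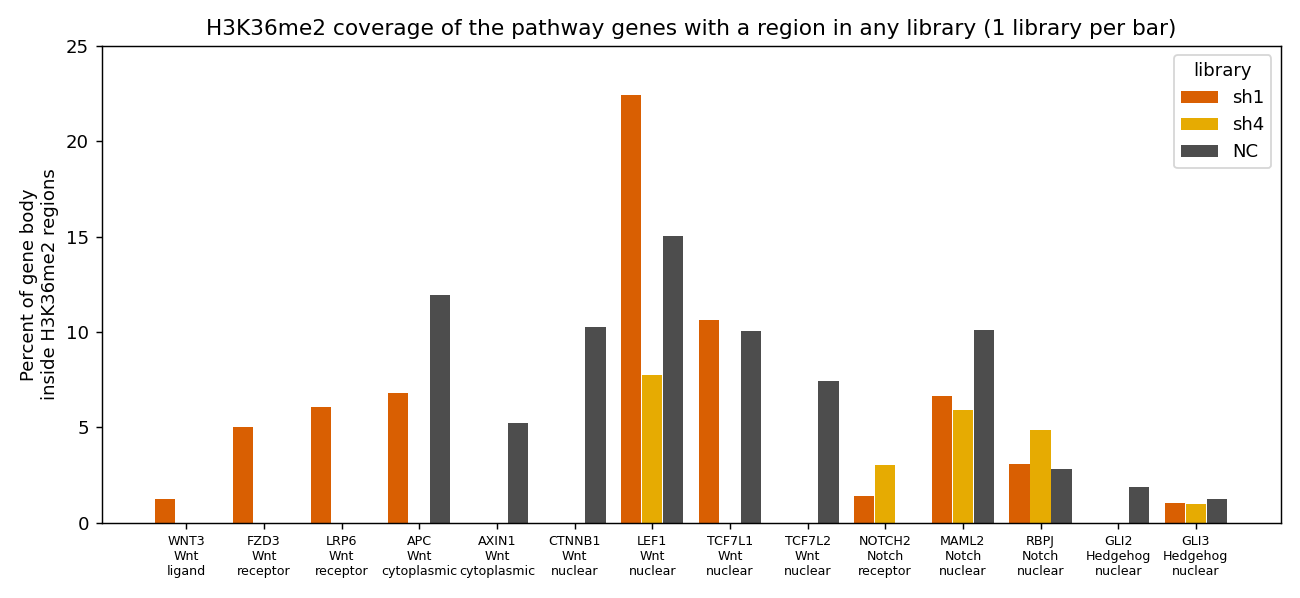
Percent of the gene body inside H3K36me2 regions in sh1, sh4 and NC for the 14 genes with a region in any library, 1 library per bar and no error bar. A missing bar is 0%. CTNNB1, TCF7L2, AXIN1 and GLI2 have a bar in NC alone, and LEF1 is highest in sh1 at 22.4%.

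In the Notch pathway the regions were confined, in these 3 libraries, to RBPJ, MAML2 and NOTCH2. RBPJ, the DNA-binding partner of the cleaved receptor, was covered to 3.09% in sh1, 4.85% in sh4 and 2.79% in NC. It was the only one of the 37 genes with a place called in all 3 libraries, where the sh1 region at chr4:26290201-26296200 (fold 1.80), the sh4 region at chr4:26295401-26298800 (fold 1.71) and the NC region at chr4:26293401-26295800 (fold 2.14) overlapped. A further RBPJ region shared 1800 bp between sh1 and NC. MAML2 was covered to 6.66% in sh1, 5.89% in sh4 and 10.1% in NC, through 6, 7 and 8 regions, of which 1 pair, in sh1 and NC, overlapped by 1400 bp. Of its sh1 regions 1 reached only 3 bp into the gene. NOTCH2 was covered to 1.39% in sh1, 3.04% in sh4 and 0% in NC, by 1 region in each hairpin at different places with folds of 1.73 and 1.50. No region touched JAG1, JAG2, NOTCH1, NOTCH3 or a HES or HEY gene.

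In the Hedgehog pathway only the GLI genes were touched. GLI2 was covered to 0% in sh1, 0% in sh4 and 1.87% in NC, through 1 region of 4800 bp with a fold of 1.55 (181 precipitated and 115 input reads). GLI3, the main repressor of the pathway, was covered to 1.05% in sh1, 0.989% in sh4 and 1.25% in NC. Its region lay at chr7:42241001-42244200 in sh1 (fold 1.94), at chr7:42258801-42261800 in sh4 (fold 1.77) and at chr7:42033001-42036800 in NC (fold 1.49). The 3 GLI3 values are alike and the places are not. SHH, PTCH1, SMO, SUFU and GLI1 held no region in sh1, sh4 or NC.

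**Figure D5:**
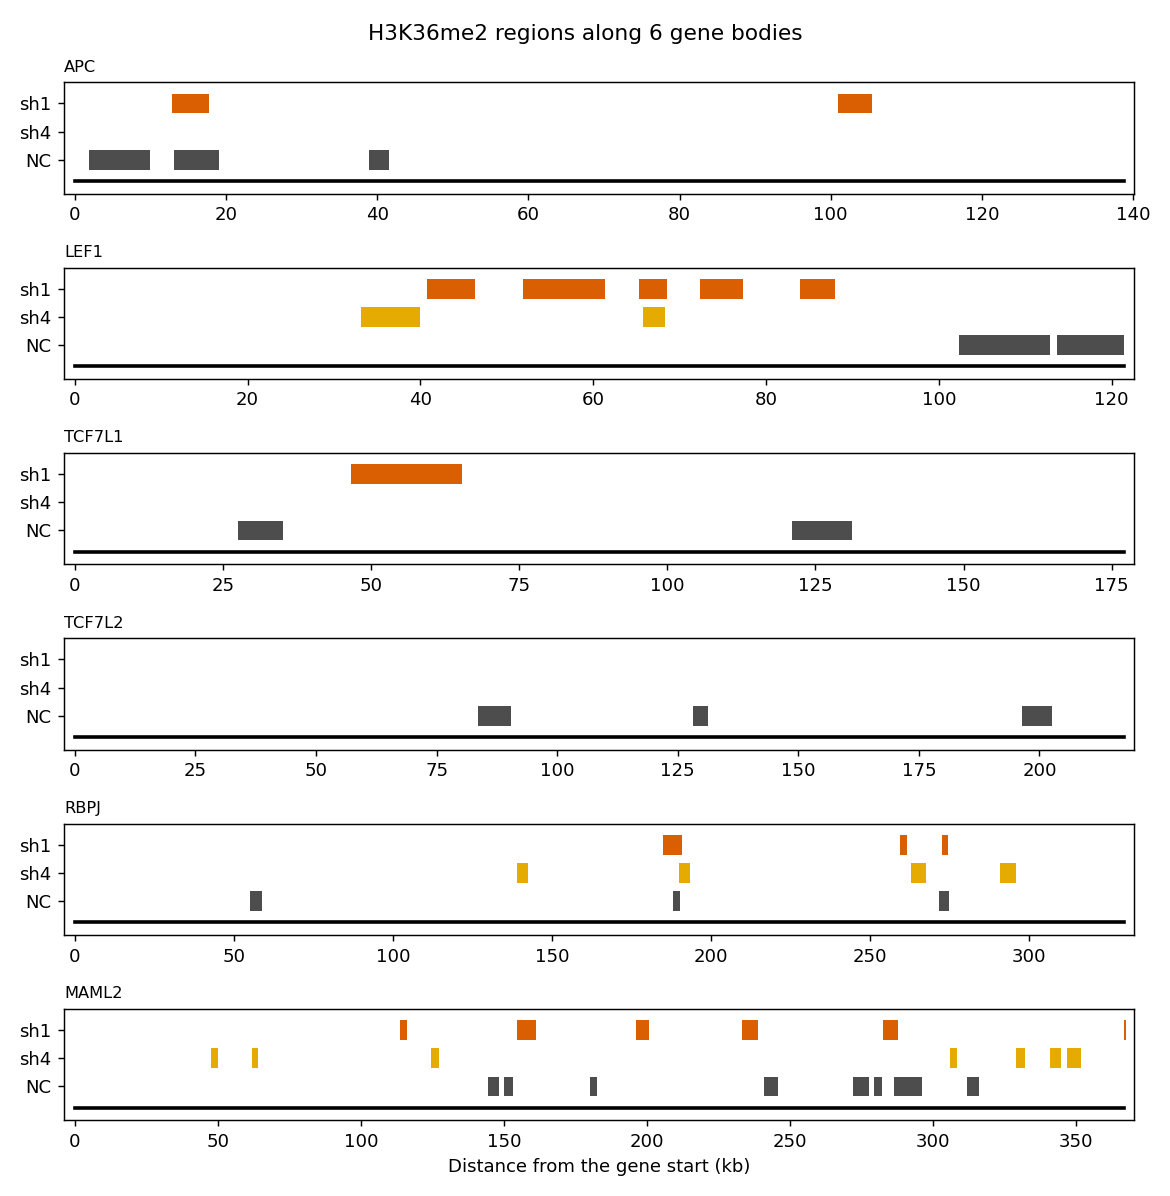
Called H3K36me2 regions along APC, LEF1, TCF7L1, TCF7L2, RBPJ and MAML2 in sh1, sh4 and NC, by distance from the gene start in kb, with the black line as the gene body. The LEF1 regions of sh1 and sh4 and those of NC fall in different parts of the gene, and in RBPJ regions of all 3 libraries meet between 189952 and 190351 bp. The sh1 region that reaches 3 bp into MAML2 is drawn wider than scale.

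Regions in these genes were seldom called at the same place in 2 libraries. An NC region was overlapped by 4 of 24 sh1 regions (16.7%, against 15.6% of all sh1 regions) and by 1 of 15 sh4 regions (6.67%, against 12.7% of all sh4 regions). The hairpins overlapped each other in 2 of 24 sh1 regions (8.33%, against 17.6%) and in 2 of 15 sh4 regions (13.3%, against 15.7%). Most of the regions in these genes were thus called in 1 library and not in another. Of the 24 NC regions in genes with a known strand, 1 began within 2 kb of the start, in APC, and of the 19 in sh1 and 14 in sh4 none did. The same count was not made over all genes. A stretch of 2 kb is a small part of these long bodies, so avoidance of starts cannot be read from these counts.

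KDM2A peaks were no more or less dense inside H3K36me2 regions than the counts can tell apart. Per 100 kb, 14.6 KDM2A peaks (8.37 to 23.8) lay inside the sh1 regions, 12.8 (5.14 to 26.3) inside the sh4 regions and 15.2 (9.31 to 23.5) inside the NC regions. Outside them the values were 18.4, 18.3 and 18.4. The intervals inside hold the values outside, so no difference was detectable. Of the 12 body peaks with an FDR under 0.05, none had its midpoint inside a region of any library, and 1, in NOTCH2, overlapped the edge of the sh1 region. The regions took up only 3.36% of the pooled bodies in sh1, 1.69% in sh4 and 4.04% in NC. With so little area covered, the absence of these 12 peaks from the regions does not show avoidance.

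The 107 further genes of the pathways came from a list made by name. An end peak was present in 95 of them, against 84.0% of all genes, and one with an FDR under 0.05 in 7, against 5.55%. High folds were found at PORCN, which adds the lipid that Wnt ligands need, with 4.16, WNT16 with 3.76 and WLS, which carries Wnt ligands to the cell surface, with 3.73. Coverage by H3K36me2 was above 0 in 15 of 107 in sh1 (14.0%, against 16.2% of all genes), 18 in sh4 (16.8%, against 15.4%) and 27 in NC (25.2%, against 20.0%). It was lower than NC in both hairpins in 20 (18.7%, against 12.6%), higher in 3 (2.80%, against 4.69%) and opposite in 7 (6.54%, against 4.75%). The coverage lay well below NC in both in SCUBE2, which helps release Hedgehog ligands, with 0% in sh1, 0% in sh4 and 47.7% in NC, the secreted Wnt inhibitor SFRP2 with 0%, 21.3% and 44.9%, and the Norrin gene NDP with 0%, 0% and 14.6%, in the same order. It lay above NC in both in RSPO3, which strengthens Wnt signals, with 5.44% in sh1, 39.1% in sh4 and 0% in NC, ADAM10, which cuts Notch, with 2.49%, 3.98% and 0%, and the Notch inhibitor NUMB with 3.05%, 2.18% and 0%. In NC the mark lay in 2 of 25 ligands, 7 of 18 receptors and 5 of 18 nuclear factors, whereas among the 37 genes it lay in 0 of 8, 0 of 11 and 8 of 13, a difference that was not tested.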

How the data were processed

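The deposited data were 4 peak lists from 8 ChIP-seq libraries, and the other 4, inputs, were not analysed here. The submitters' processing notes name MACS2, SICER and Bowtie 1.1.2, and GRCh38 and hg38 as builds, without saying which made which list. The deposited H3K36me2 lists give, per region on a grid of 200 bp, the authors' fold enrichment (a ratio), p-value, FDR (all under 1e-05) and score. The deposited KDM2A list gives the authors' fold enrichment (a ratio), p-value, FDR (up to 0.869) and pileup, a signal.

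Here, region starts were made 1-based, and precipitated and input reads were recovered from fold and p under a Poisson model (100% within 0.001 and 0.01 of whole numbers). Gene ends came from RefSeq GRCh38.p14, and strands from its promoter table (15812 genes, 30 of the 37). The read depth of the KDM2A library is unknown. Counts have exact binomial or Poisson intervals of 95%, which cover counting error only. Full values are given for the gene with an end peak past the FDR limit, the 4 highest end folds per pathway, and every covered gene. Values of some other pathway genes are not reported here. The members and lists were chosen with earlier results of these data known. Scripts, checked on simulated peaks, used Python 3.11.15, pandas 2.3.3 and scipy 1.17.1.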

Additional observations from a re-analysis of the deposited data

Results flagged for a closer look

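In 2 genes the hairpins moved in opposite directions from the shared NC library, and with 1 library per group this difference was not tested. Coverage of TCF7L1 differed from NC by 0.565 percentage points in sh1 and by -10.1 percentage points in sh4. Coverage of LEF1 differed from NC by 7.37 percentage points in sh1 and by -7.29 percentage points in sh4. With regions of fold above the NC median only, neither stayed opposite: LEF1 differed from NC by 10.5 percentage points in sh1 and by 2.14 in sh4, and TCF7L1 by 0 in both. That cut removes relatively more NC regions than hairpin regions.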

How the results depend on the processing

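No paired analysis was possible because each group holds 1 library. The end-peak count of 32 was 20 with windows of 500 bp, 6 with the top 10% of peaks by fold, 1 with an FDR under 0.05, and 20 of 24 in genes of at least 30 kb, an alternative chosen after the data were seen. The body density of 18.2 per 100 kb was 1.20 with the top 10% of peaks and 0.369 with an FDR under 0.05. With H3K36me2 regions of fold above the NC median only, 9 genes were covered in sh1, 4 in sh4 and 5 in NC. The cut is the NC median of 1.59, below the medians of 1.65 in sh1 and 1.65 in sh4. It thus takes out a larger share of NC regions, so upward differences from NC are partly built into it. Under it 3 genes were lower in both hairpins (AXIN1, MAML2, TCF7L2) and 1 was opposite (APC, 4.90 points in sh1 and -1.87 in sh4, in place of LEF1 and TCF7L1). The differences from NC reversed for APC in sh1 (4.90 points), GLI3 in sh1 (1.05) and sh4 (0.989) and LEF1 in sh4 (2.14). With an FDR under 1e-10 the covered genes were 5 in sh1, 2 in sh4 and 1 in NC, 1 was lower in both (MAML2), 1 higher in both (RBPJ) and 0 opposite, and GLI3 in sh1 reversed (1.05). With coverage of at least 5% required, 5 genes were covered in sh1, 2 in sh4 and 0 were higher in both. Shares of all genes were available only for end peaks with an FDR under 0.05 and for genes of at least 30 kb. Under the other settings it cannot be told whether the changes are particular to these genes. The causes were not tested. The regions in these genes rested on 91 to 809 precipitated reads in sh1, 93 to 250 in sh4 and 95 to 493 in NC, and this depth limits each fold.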
